A study of Mus musculus with 8 samples.

Results

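The trypsinogens and the trypsin inhibitor of the pancreas were followed in RNA sequencing data of mouse pancreas. Trypsinogens are made by acinar cells as inactive precursors and are stored in zymogen granules. In the gut they are cut to active trypsin, which in turn activates the other digestive precursors. When trypsinogen is cut inside the acinar cell instead, as in acute pancreatitis, the small inhibitor encoded by Spink1 binds trypsin and blocks it.

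The 7 genes were taken by symbol from the deposited table of 16888 genes: the trypsinogen genes Prss1, Prss2, Prss3, Try4, Try5 and Try10, and Spink1. All 7 were present, and all 7 passed the filter for testing (at least 1 RPKM in at least 4 libraries). The 8 libraries came from pancreas of mice that had received repeated cerulein, a peptide that overstimulates acinar cells and brings on pancreatitis. In 4 of them (CKO1 to CKO4) Anxa1, the gene of the inflammation-restraining protein annexin A1, was knocked out in myeloid cells. The other 4 (WT1 to WT4) carried Anxa1 flox/flox alleles, and both groups had cerulein, so a pancreas without pancreatitis was not analysed here. The sources used here name neither the Cre driver nor the age and sex of the mice, and do not say whether each library was a separate animal. The p-values therefore measure the spread between these samples.

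Library totals ran from 30469002 to 34359802 reads. Anxa1 itself lay between 4.76 and 7.13 RPKM in the CKO libraries and between 7.05 and 14.7 RPKM in the WT libraries, with overlapping groups (log2 change -0.73, limma adjusted p = 0.0417). RPKM is a read number scaled to the length of the gene and to the total of the library. The samples carried the markers of acinar tissue: the 7 acinar marker genes summed to 122722 to 168477 RPKM in CKO and 138290 to 145598 RPKM in WT. The 3 T cell markers in the table summed to at most 0.721 RPKM and the 4 B cell markers to at most 5.30 RPKM, the latter in WT2. The 5 macrophage markers summed to 142 to 303 RPKM in CKO and 258 to 513 RPKM in WT, and 0 of them passed in limma (3 at an unadjusted p under 0.05 and 0 by limma-voom). Of the 5 islet markers 1 rose in limma (Gcg), with 4 at an unadjusted p under 0.05 and 0 past the threshold by limma-voom. Of the 3 endothelial markers tested 1 fell (Kdr), with 1 by limma-voom. Among all 8513 genes tested in limma, 2323 had an unadjusted p under 0.05, and 1.42% passed as higher and 5.74% as lower in CKO.

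All 6 trypsinogen genes lie on chromosome 6 of mm10, in a stretch of 222.8 kb beside the constant genes of the T cell receptor beta chain. Try4 (41302269 to 41305532, plus strand) comes first, followed by Try5 (41311233 to 41316841, minus strand) and Try10 (41354105 to 41357914, plus strand). Prss3 (41373814 to 41377678, minus strand), Prss1 (41458932 to 41463786, plus strand) and Prss2 (41521787 to 41525079, plus strand) follow. Prss2 ends 13.1 kb before Trbc1, a constant gene of the receptor. Spink1 lies elsewhere, on chromosome 18. Each of the 6 genes is annotated as protein coding, with 738 coding bases for 246 codons.

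The 6 coding sequences were alike enough to bear on how reads were assigned. Over the 15 pairs the identity of the aligned coding bases ran from 88.6% (Prss2 and Prss3) to 97.4% (Try4 and Try5). The stretch below is shown because it holds the site at which trypsinogen becomes trypsin. It covers coding bases 31 to 93, counted from the A of the start codon, in GENCODE M21 transcripts. Capitals mark the run of aspartate codons and the lysine codon after which the activating cut is made.

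Prss1: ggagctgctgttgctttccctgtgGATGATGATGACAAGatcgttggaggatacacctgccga

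Prss2: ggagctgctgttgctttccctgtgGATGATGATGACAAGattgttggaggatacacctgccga

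Prss3: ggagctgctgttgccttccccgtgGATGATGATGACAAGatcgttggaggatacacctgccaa

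Try4: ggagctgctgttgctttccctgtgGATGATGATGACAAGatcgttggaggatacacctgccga

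Try5: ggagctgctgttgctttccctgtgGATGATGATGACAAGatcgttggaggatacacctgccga

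Try10: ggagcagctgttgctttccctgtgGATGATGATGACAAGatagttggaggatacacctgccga

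The 15 capital bases did not differ in any pair. Prss1, Try4 and Try5 had 0 differences over the whole 63 bases, Prss2 differed from these at 1 base, and Prss3 and Try10 differed most, at 5 bases.

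To describe how far a read could fit more than 1 gene, each longest transcript was cut into all windows of 50, 100 or 150 bases, and each window was looked for in the transcripts of every other gene. At 50 bases 66.1% of the windows of Prss3, 65.6% of Try4, 54.9% of Prss1, 53.9% of Try5, 40.8% of Try10 and 7.83% of Prss2 were also found in another gene. At 150 bases the shares were 31.2% for Prss3, 19.2% for Try4, 19.2% for Try5, 3.66% for Prss1, and 0% for Try10 and Prss2. Spink1 had 0 shared windows at any of these lengths. The sources used here give neither the read length nor the treatment of reads that fit several genes. The levels of Prss3, Try4, Try5, Prss1 and Try10 are therefore uncertain, while the letters of Prss2 and Spink1 set them apart at 100 bases and more.

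**Figure D1:**
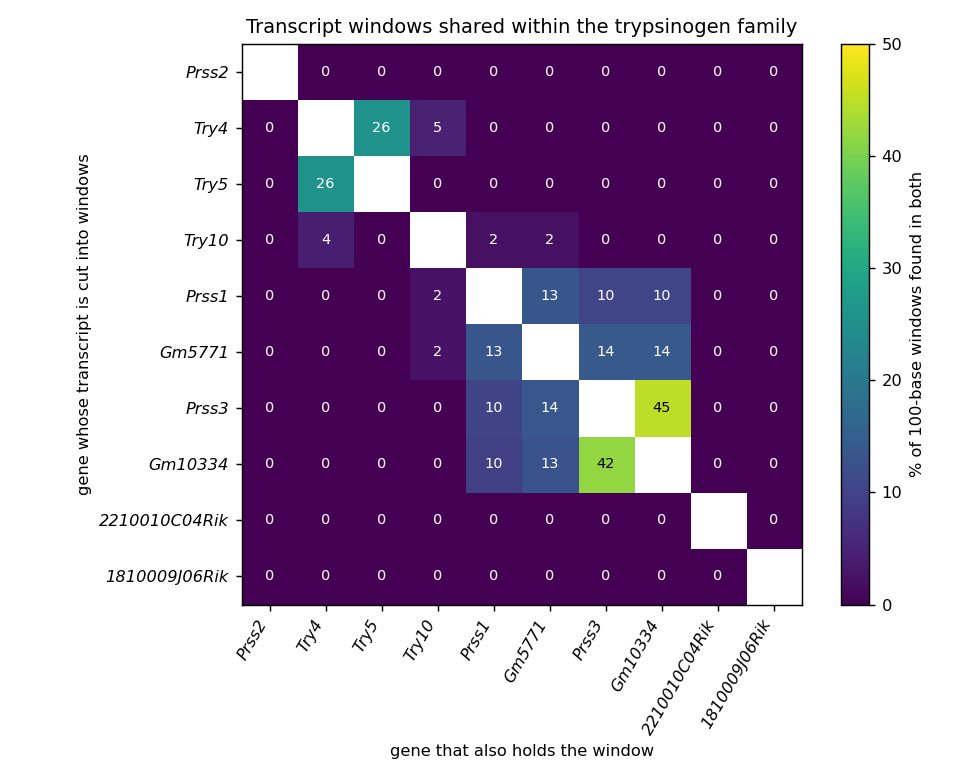
Share of the 100-base windows of each transcript (rows) that also occurred in another gene of the family (columns), in percent, from GENCODE M21 transcripts. The pairs with the most in common were Prss3 with the predicted gene Gm10334 (45.0% of the windows of Prss3) and Try4 with Try5 (25.6%), and Prss2 shared 0%. Gm2663, which held 67.6% of the windows of 1810009J06Rik, is not shown.

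The levels of the 7 genes fell into well separated tiers. Averaged over the 8 libraries, Prss2 stood at 37913 RPKM, Try4 at 35047 RPKM and Try5 at 29347 RPKM, which made them the genes ranked 5, 6 and 7 of the table. Prss3 followed at 1850 RPKM (rank 37), Spink1 at 1118 RPKM (rank 41), Try10 at 166 RPKM (rank 179) and Prss1 at 53.6 RPKM (rank 424). Prss2 was above Try4 in 7 of 8 libraries, with CKO4 the exception, and the gap between their means was 1.08-fold. The gap differed by group: Prss2 and Try4 averaged 36109 and 30404 RPKM in WT, and 39717 and 39691 RPKM in CKO. Try4 was above Try5, Spink1 above Try10 and Try10 above Prss1 in 8 of 8 libraries. Prss3 was above Spink1 in 6 of 8, the exceptions being WT2 and WT4. These orders rest on the gene lengths behind the table, from 422 bases for Spink1 to 890 bases for Try10.

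The promoters of the highest and the lowest of the trypsinogens are shown because these genes share 89.6% of their coding bases and stood at opposite ends of the order of levels. Both stretches are the 250 bases before the RefSeq transcript start in GRCm38.p6, read along the gene. Capitals mark the letters CACCTG (the E-box bound by the acinar factor PTF1) and TTTCCC (the other part of the PTF1 site), each on either strand, and TATAAA on the strand of the gene. No base lay in more than 1 of these motifs.

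Prss2, chr6:41521526-41521775, plus strand: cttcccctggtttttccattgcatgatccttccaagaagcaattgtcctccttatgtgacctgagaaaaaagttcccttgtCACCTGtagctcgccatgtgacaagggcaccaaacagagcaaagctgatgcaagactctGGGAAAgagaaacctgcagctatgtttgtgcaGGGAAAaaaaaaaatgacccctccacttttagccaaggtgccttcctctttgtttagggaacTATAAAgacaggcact

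Prss1, chr6:41458680-41458929, plus strand: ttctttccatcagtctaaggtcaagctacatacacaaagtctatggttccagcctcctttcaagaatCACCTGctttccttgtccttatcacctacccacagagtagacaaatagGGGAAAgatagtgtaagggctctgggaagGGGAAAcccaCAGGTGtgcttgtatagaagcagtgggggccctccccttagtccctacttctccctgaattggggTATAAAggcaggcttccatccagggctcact

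Prss2 held 1 match to the E-box letters, 2 to TTTCCC and 1 to TATAAA. Prss1 held 2, 2 and 1. The TATAAA letters began at -16 from the RefSeq start in Prss2 and at -31 in Prss1. GENCODE places the start of Prss2 at 41521787, downstream of the RefSeq start. The windows of Prss2 and Prss1 may therefore be offset from each other. Over all 32851 promoters of this length from RefSeq, 17.2% held CACCTG, 21.9% held TTTCCC and 7.59% held TATAAA. The aligned promoters were identical at 53.2% of columns. Promoters of Try4 and Prss3 were also in the table, each with 1 E-box match, 0 matches to TTTCCC and 1 to TATAAA.

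Between the groups, 2 trypsinogens rose in CKO (Prss3 and Try4), Spink1 fell, and Try5, Prss2, Prss1 and Try10 did not pass the test. The test was limma on log2 of RPKM plus 1 over all 8513 genes that passed the filter, with Benjamini-Hochberg adjustment over all of them and a threshold of 0.05. In that test 7.17% of all genes passed, 1.42% as higher and 5.74% as lower in CKO. These were 121 and 489 genes, against 305 and 267 with median centring and 240 and 389 with totals that left out the digestive enzymes. The log2 change had a median of -0.12 over all 8513 genes and of 0.23 over the 6 trypsinogens. In bulk tissue, fewer cells of a type and less RNA per cell cannot be told apart.

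Prss3 encodes a minor trypsinogen and showed the largest change of the 7. CKO1 to CKO4 held 2566, 2170, 2685 and 1795 RPKM of it, against 1685, 1296, 1366 and 1239 RPKM for WT1 to WT4. Every CKO library was above every WT library, with CKO4 the lowest of its group and WT1 the highest of its own. Prss3 averaged 2304 ± 405 RPKM over CKO and 1396 ± 199 RPKM over WT (SD, n = 4 each), 1.65-fold higher in CKO. The log2 change was 0.71 (SE 0.14, 95% interval 0.41 to 1.02, limma adjusted p = 0.0141), or 0.84 above the median of all genes. The call held in each of 15 other settings. The predicted gene Gm10334, whose coding bases are 99.1% identical to those of Prss3, was at 66.6 ± 29.4 RPKM in CKO and 48.4 ± 7.89 RPKM in WT (n = 4 each, limma adjusted p = 0.329).

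Try4 is among the most abundant transcripts of the tissue. CKO1 to CKO4 held 39406, 38293, 37507 and 43558 RPKM of Try4, against 28735, 31241, 31339 and 30301 RPKM for WT1 to WT4. The groups did not overlap, and CKO4 stood highest. The means were 39691 ± 2693 and 30404 ± 1207 RPKM (SD, n = 4 each), 1.31-fold higher in CKO, with a log2 change of 0.38 (SE 0.08, limma adjusted p = 0.0206). The threshold was missed without CKO2 (adjusted p = 0.0549), WT1 (0.0788) or WT2 (0.0551). It was also missed with median centring (0.0537) and with totals that left out the digestive enzymes (0.0616).

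Try5, the closest relative of Try4, did not pass although its groups did not overlap either. CKO1 to CKO4 held 34346, 33409, 29804 and 30174 RPKM of Try5, against 27429, 26352, 25177 and 28083 RPKM for WT1 to WT4. CKO1 and CKO2 were well above the WT range, while CKO3 and CKO4 were close to it. The means were 31933 ± 2282 and 26760 ± 1274 RPKM (SD, n = 4 each), a log2 change of 0.25 (SE 0.08, 95% interval 0.07 to 0.44, limma adjusted p = 0.0815).

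Prss2, the trypsinogen with the fewest letters in common with the others, reached 41352, 39154, 39476 and 38887 RPKM from CKO1 to CKO4. The WT1 to WT4 levels of Prss2 were 33789, 38037, 34767 and 37845 RPKM. The lowest CKO library was just above the highest WT library. The means were 39717 ± 1116 and 36109 ± 2154 RPKM (SD, n = 4 each), a log2 change of 0.14 (SE 0.08, 95% interval -0.03 to 0.31, limma adjusted p = 0.275).

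The groups did not overlap for 18.7% of all tested genes, with CKO above WT for 2.46% and below for 16.2%. Of the 6 trypsinogens, 4 had CKO above WT. The other 2 were the rare ones. For Prss1, CKO1 to CKO4 read 53.4, 41.4, 83.6 and 51.5 RPKM, and WT1 to WT4 read 71.2, 36.7, 48.1 and 42.8 RPKM. CKO3 and WT1 were the high libraries, and the groups overlapped (log2 change 0.20, 95% interval -0.30 to 0.70, limma adjusted p = 0.594). For Try10, CKO1 to CKO4 read 166, 119, 144 and 184 RPKM, and WT1 to WT4 read 220, 183, 145 and 163 RPKM. It also overlapped, with WT1 highest and CKO2 lowest (log2 change -0.21, 95% interval -0.55 to 0.12, limma adjusted p = 0.395).

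**Figure D2:**
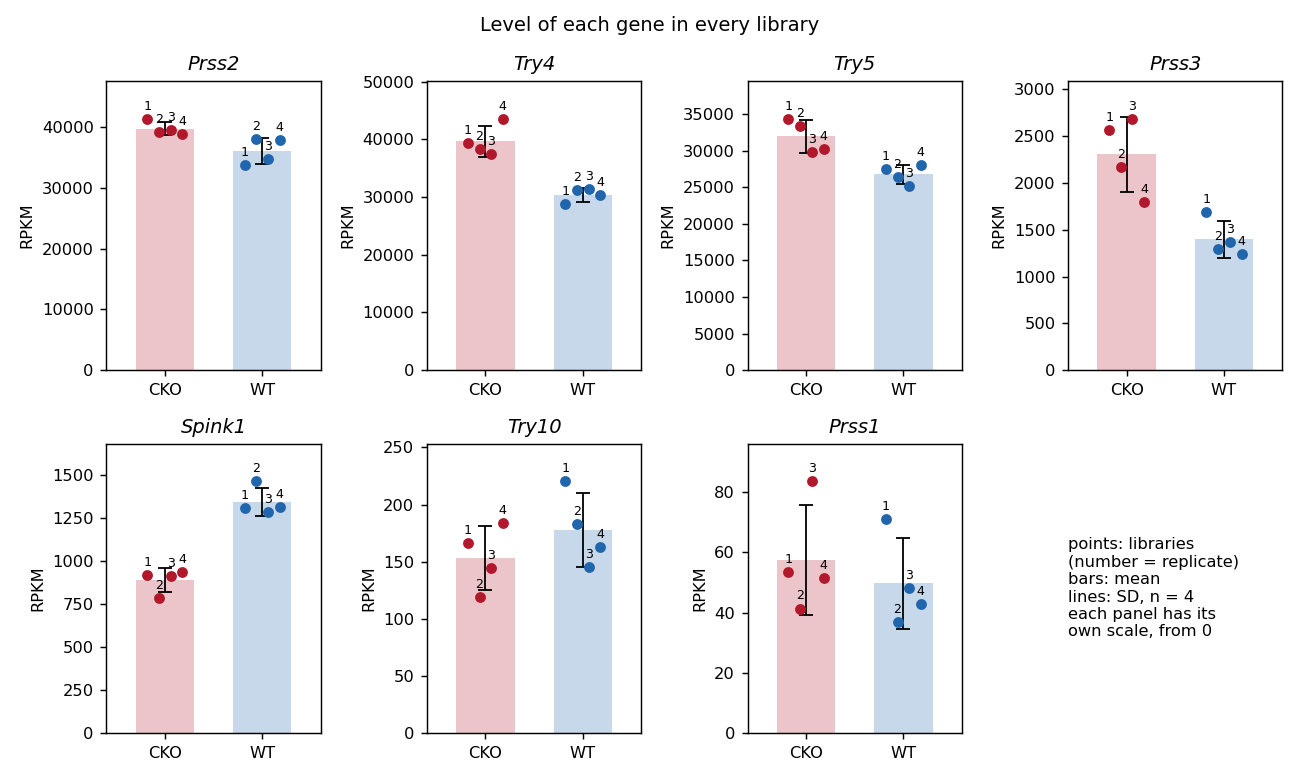
RPKM of each of the 7 genes in every library, with the replicate number beside each point, the mean as a bar and the SD as a line (n = 4 per group). The CKO points of Prss2, Try4, Try5 and Prss3 all lie above the WT points, those of Spink1 all lie below (at most 938 RPKM against at least 1290 RPKM), and those of Try10 and Prss1 overlap.

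Spink1, the inhibitor, moved the other way. CKO1 to CKO4 held 922, 784, 915 and 938 RPKM of Spink1, against 1310, 1465, 1290 and 1318 RPKM for WT1 to WT4. The groups were far apart, with CKO2 the lowest and WT2 the highest library. The means were 890 ± 71.0 and 1346 ± 80.6 RPKM (SD, n = 4 each), 0.661 of the WT level in CKO. The log2 change was -0.60 (SE 0.10, 95% interval -0.81 to -0.39, limma adjusted p = 0.00551), or -0.47 against the median of all genes. The call held in each of 15 other settings. Of the 5 duct markers 4 were tested, and 1 of them fell (Sox9). The other 3 tested (Krt19, Krt7 and Spp1) had lower means in CKO but did not pass, Cftr was at 0.266 RPKM in CKO and 0.255 RPKM in WT, and the sum of the 5 was 274 to 521 RPKM in CKO and 541 to 606 RPKM in WT. The part of the duct markers in the result was not tested. Among all tested genes 5.74% fell, and 16.2% had every CKO library below every WT library. Of the 7 acinar markers 1 fell (Amy2a5) and 6 did not pass, and their sums overlapped between the groups. Windows shared with other genes were not counted for Amy2a5.

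**Figure D3:**
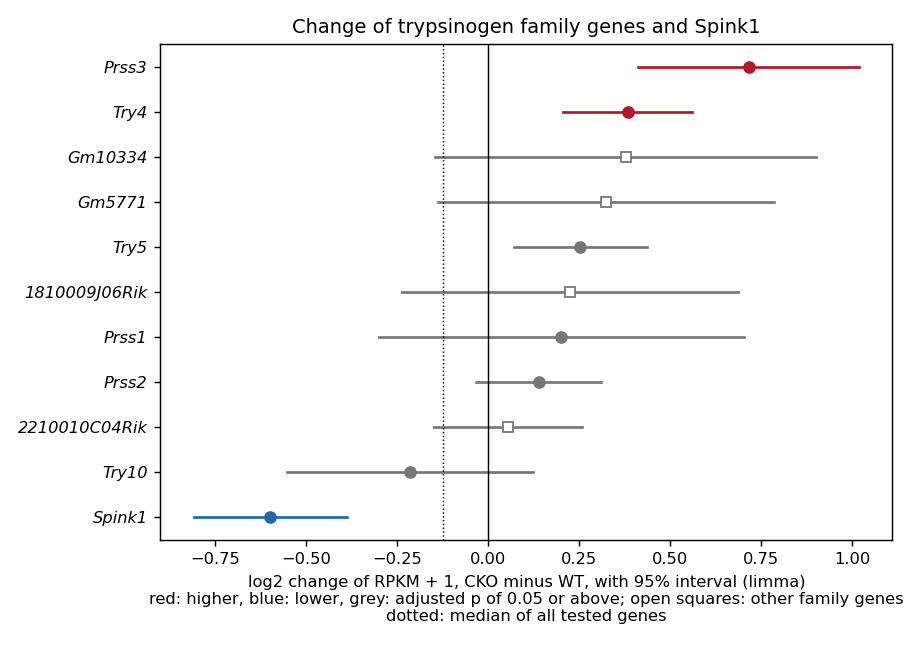
Log2 change of RPKM plus 1, CKO minus WT, with its 95% interval from limma, for the 7 genes (filled circles) and 4 other genes of the trypsinogen family (open squares). Prss3 (0.71) and Try4 (0.38) were called higher and Spink1 (-0.60) lower, and the dotted line is the median of all tested genes (-0.12).

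The summed trypsinogen transcripts are given as a description, with no test, because the genes were chosen for this account with earlier results known. Reads moved from one to another of the 6 genes change this sum only through the gene lengths. Reads left out for fitting several genes, or given to a gene outside the 6 such as Gm10334, would lower the sum. CKO1 to CKO4 held 117891, 113186, 109699 and 114650 RPKM of the 6 genes, against 91929.8, 97145, 92841 and 97674 RPKM for WT1 to WT4. The lowest CKO sum was above the highest WT sum. The means were 113857 ± 3398 and 94897 ± 2932 RPKM (SD, n = 4 each), 1.20-fold higher in CKO. With the 4 other family genes of the table added, the means were 131041 and 110960 RPKM, 1.18-fold higher in CKO. The 6 genes took 9.22 ± 0.274% of the reads of the CKO libraries and 7.69 ± 0.240% of those of the WT libraries. Prss2 made up 34.9 ± 0.869% of the summed RPKM in CKO and 38.0 ± 1.12% in WT, Try4 34.9 ± 2.11% and 32.0 ± 1.24%, and Try5 28.0 ± 1.54% and 28.2 ± 1.33%. Prss3 supplied 2.03 ± 0.376% in CKO and 1.48 ± 0.252% in WT. Prss1 and Try10 each made up at most 0.240% of the sum in any library.

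The level of Spink1 per trypsinogen does not depend on how libraries are scaled. For each 1000 RPKM of the 6 trypsinogens CKO1 to CKO4 held 7.82, 6.93, 8.35 and 8.18 RPKM of Spink1, against 14.2, 15.1, 13.9 and 13.5 for WT1 to WT4. The highest CKO value was well below the lowest WT value. The means were 7.82 ± 0.631 and 14.2 ± 0.677 (SD, n = 4 each), so that CKO stood at 0.552 of the WT value. Adding the 4 other family genes of the table to the sum gave 0.561. The ratio of Prss3 to Spink1 was 1.91 to 2.93 in CKO and 0.884 to 1.29 in WT.

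**Figure D4:**
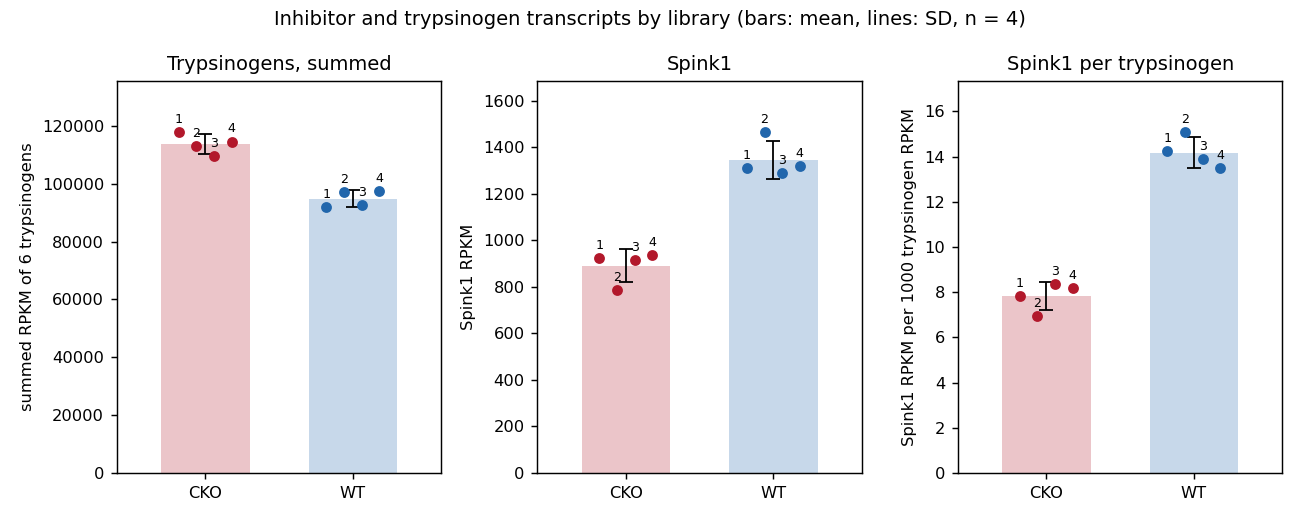
Summed RPKM of the 6 trypsinogens, RPKM of Spink1, and Spink1 RPKM per 1000 summed trypsinogen RPKM in every library (points, with replicate numbers), with mean bars and SD lines (n = 4). The sum is higher in CKO (113857 against 94897 RPKM), and Spink1 per trypsinogen is lower (7.82 against 14.2).

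Other genes of the trypsinogen family did not pass the test in limma, at 0 of 4 (0 at an unadjusted p under 0.05 and 0 by limma-voom). Gm5771 and Gm10334 lie within the stretch of the 6 trypsinogens, and 2210010C04Rik (41030268 to 41035509) and 1810009J06Rik (40964754 to 40968435) lie before it on chromosome 6. 2210010C04Rik, which was 75.4% to 76.7% identical to the 6 trypsinogens, was at 14090 ± 1498 RPKM in CKO and 13526 ± 649 RPKM in WT (n = 4 each, limma adjusted p = 0.741). 1810009J06Rik was at 2619 ± 881 and 2151 ± 242 RPKM (limma adjusted p = 0.514), and Gm5771 at 409 ± 60.3 and 338 ± 116 RPKM (limma adjusted p = 0.346). Of the windows of 1810009J06Rik, 67.6% at 100 bases and 51.7% at 150 bases were also found in Gm2663, so its level is uncertain. The groups overlapped for each of the 4.

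Genes of trypsinogen activation and degradation were counted as a list of 11, with the cathepsin inhibitors Cstb and Cst3 among them. Of the list 9 were tested: 2 fell, 0 rose and 7 did not pass, with a median log2 change of -0.22. Over all tested genes 5.74% fell, and the median was -0.12. By limma-voom 1 of the 9 passed. Ctsl encodes cathepsin L, a lysosomal protease that degrades trypsinogen. CKO1 to CKO4 held 313, 292, 341 and 182 RPKM of Ctsl, against 520, 602, 555 and 593 RPKM for WT1 to WT4. Every CKO library was below every WT library, with CKO4 the lowest. Ctsl fell to 0.497 of the WT mean (log2 change -1.04, SE 0.17, limma adjusted p = 0.00551). The macrophage markers given above, for cells rich in cathepsins, overlapped between the groups, and their part in this result was not tested. Cstb, an inhibitor of cathepsins, fell to 0.646 of the WT mean (limma adjusted p = 0.0328), a call lost in 7 of 15 other settings. These were the omission of CKO2, WT1, WT2, WT3 or WT4 (up to 0.0937), no filter on low values (0.0781) and limma-voom (0.0514).

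The cathepsin that activates trypsinogen, Ctsb, and the gut activator Tmprss15 were named after their values were seen. Ctsb was at 223 ± 56.0 RPKM in CKO and 256 ± 38.5 RPKM in WT, with overlapping groups (n = 4 each, log2 change -0.22, 95% interval -0.61 to 0.16, limma adjusted p = 0.439). Ctsd, another lysosomal protease, was at 0.831 of the WT mean (limma adjusted p = 0.119), and Cst3, a secreted cathepsin inhibitor, at 0.848 (limma adjusted p = 0.167). Tmprss15, enterokinase, was above 0 only in WT2, at 0.00745 RPKM, which is below the level of 3 reads.

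Among 27 other inhibitors of serine proteases 9 were tested, of which 2 fell, 0 rose and 7 did not pass (median log2 change -0.30). Over all tested genes 5.74% fell, and the median was -0.12. By limma-voom 1 of the 9 passed. Serpinb1a, an inhibitor of neutrophil proteases, was at 106 ± 36.9 RPKM in CKO and 237 ± 29.1 RPKM in WT without overlap (n = 4 each, log2 change -1.21, limma adjusted p = 0.0132). The 5 neutrophil markers summed to 13.8 to 45.1 RPKM in CKO and 36.5 to 82.3 RPKM in WT, and their part in this result was not tested. Spint1, a membrane-bound inhibitor of trypsin-like proteases in epithelia, fell to 0.711 of the WT mean (limma adjusted p = 0.0406). That call was lost in 10 of 15 other settings, among them the omission of CKO2, CKO4 or any 1 of the WT libraries (up to 0.0975), no filter (0.0769), median centring (0.0692) and limma-voom (0.0605). Serpini2, a serpin of acinar cells, was at 166 ± 16.4 and 209 ± 15.7 RPKM (limma adjusted p = 0.0763). It passed in 1 of 15 other settings, without CKO1 (0.0469), and the highest adjusted p was 0.237. Serpinb6a was at 140 ± 19.3 and 171 ± 6.44 RPKM (limma adjusted p = 0.107). It passed in 1 of 15 other settings, without CKO3 (0.0378), and the highest adjusted p was 0.230.

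Of 14 genes whose products are cut by trypsin 12 were tested, with 1 lower, 0 higher and 11 not past the threshold, and a median log2 change of 0.01. Over all tested genes 5.74% fell. By limma-voom 0 of the 12 passed. The one that fell was Cela3a, an elastase precursor with few reads (7.73 ± 1.23 against 11.5 ± 1.91 RPKM, n = 4 each, limma adjusted p = 0.0478). Its call was lost in 14 of 15 other settings, which included each of the 8 omissions of a library (0.0511 to 0.136), and held only with variances without trend or robust moderation (0.0485). Cpa1, a carboxypeptidase precursor, was at 18196 ± 2193 and 16206 ± 154 RPKM (limma adjusted p = 0.302), and Cela1, an elastase precursor, at 40715 ± 4575 and 44767 ± 2107 RPKM (limma adjusted p = 0.347). F2rl1, the trypsin-activated receptor PAR2, was at 9.06 ± 2.49 and 7.65 ± 0.954 RPKM (limma adjusted p = 0.480).

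Of the 7 transcription factors of acinar cells 0 passed in limma (2 at an unadjusted p under 0.05 and 0 by limma-voom), with a median log2 change of 0.14. Among all 8513 genes tested in limma, 2323 had an unadjusted p under 0.05. Ptf1a, the factor whose letters were searched in the promoters, was at 60.3 ± 9.10 RPKM in CKO and 48.1 ± 9.86 RPKM in WT (n = 4 each, limma adjusted p = 0.187). Gata4 was at 9.63 ± 2.48 and 14.9 ± 2.52 RPKM (limma adjusted p = 0.0557). It passed in 1 of 15 other settings, without CKO2 (0.0480), and the highest adjusted p was 0.147. Bhlha15, a factor of the secretory apparatus, was at 21.8 ± 6.91 and 13.7 ± 2.78 RPKM (limma adjusted p = 0.114). It passed in 1 of 15 other settings, without CKO1 (0.0152), and the highest adjusted p was 0.267.

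**Figure D5:**
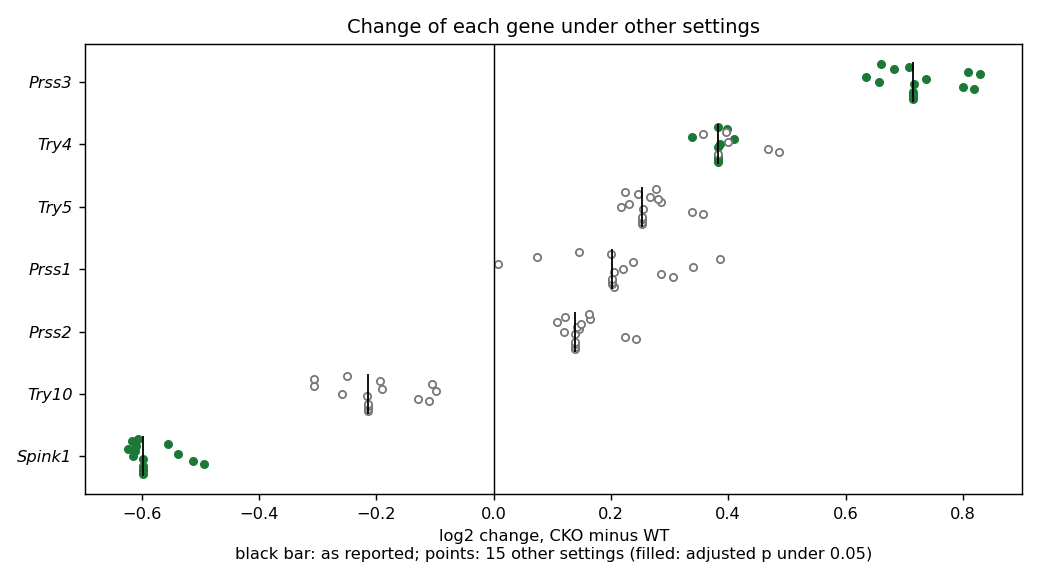
Log2 change of each of the 7 genes, CKO minus WT, as reported (black bar) and in 15 other settings (points, filled where the adjusted p was under 0.05). All points of Prss3 (0.64 to 0.83) and Spink1 (-0.62 to -0.49) are filled, Try4 has both kinds, and the points of Try5, Prss1, Prss2 and Try10 are open.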

How the data were processed

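The levels were deposited as RPKM by the authors, in 1 table with 1 named column per library and no unit in its header. The unit was read from the values: 16056 of 16068 genes above 0 in at least 2 libraries (99.93%) were whole reads, within 0.05 reads, at 1 gene length and the library totals recovered with it. All 7 genes described were among them, with reads in every library. Many lengths were tried for each gene, so genes above 0 in few libraries could fit by chance. The 99.93% therefore overstates how firmly the values give the unit. Another unnamed value column (1) was not used. The build was mm10 per the submitters' processing notes. The sources used here name no aligner, counter or annotation. With 952 or more reads for each of the 7 genes in every library, counting error was at most 3.24% of a value, and covers counting only.

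The comparison used limma 3.58.1 in R 4.3.3 on log2(RPKM + 1) fitted to group alone, with variances moderated robustly and along the mean level. Sequences, sums and plots used Python 3.11.15 with Biopython 1.88, NumPy 2.4.6, pandas 2.3.3 and Matplotlib 3.10.9. Gene positions and transcripts are from GENCODE M21, promoters from RefSeq on GRCm38.p6 (4 of 6 trypsinogens matched).

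The genes and lists were chosen with earlier results of these data known. Named were all 7 genes, from each list up to 4 genes taken by smallest unadjusted p, and the 2 genes closest in pattern to each of the 7, predicted genes and clone names left out. Of the genes this rule names, 1 is not reported here. The other settings were a pseudocount of 0.1, no filter, variances without trend or robust moderation, a replicate block, median centring, totals without digestive enzymes, limma-voom on recovered reads and the omission of each library. The steps were tested on simulated data.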

Additional observations from a re-analysis of the deposited data

Results flagged for a closer look

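In 2 of the 18 groups of 4 values checked, 1 library stood far from the other 3, and chance alone flags about 1 group in 20. Both concerned Spink1. CKO2 was at 784 RPKM, with the other CKO libraries between 915 and 938 RPKM, and WT2 was at 1465 RPKM, with the other WT libraries between 1290 and 1318 RPKM. Without CKO2 the log2 change of Spink1 was -0.54 (limma adjusted p = 0.0305), and without WT2 it was -0.56 (limma adjusted p = 0.0232). WT2 also had the highest summed adipocyte markers (133 RPKM) and B cell markers (5.30 RPKM) of the 8 libraries, and their part in the level of Spink1 was not tested.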

How the results depend on the processing

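Prss3 and Spink1 kept their direction and their call in all 15 other settings, with adjusted p up to 0.0434 and 0.0388. Try4 kept its direction in all and its call in 9, and Try5, Prss2, Prss1 and Try10 passed in 0. With the replicate block, which uses the replicate numbers of the titles, 548 genes passed in place of 610, and Try4 (0.0587), Spint1 (0.0655) and Cela3a (0.0668) missed the threshold. Same-numbered libraries did not deviate together (correlations of -0.12, -0.32, 0.14 and 0.03), so the numbers were not taken as pairs. Median centring moved the median log2 change of all genes from -0.12 to -0.02. With it 305 genes passed as higher and 267 as lower, against 121 and 489 as reported, and totals without digestive enzymes gave 240 and 389. Leaving out 1 library gave 185 (without WT1) to 686 (without CKO3) genes. The counts were 228 without CKO2, 267 without CKO4, 245 without WT2, 297 without WT3 and 254 without WT4. Over these omissions 2 to 3 of the 7 genes passed, the log2 change of 2210010C04Rik ran from -0.018 to 0.080 and that of Errfi1 from -0.059 to 0.34, and Spink1 per trypsinogen stayed at 0.539 to 0.572 of the WT value. Depth did not limit the 7 genes, and reads shared between copies do limit Prss3, Try4, Try5, Prss1 and Try10. The cause of the lost calls was not tested.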

Other observations

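For each of the 7 genes the tested genes with the most similar pattern were listed, by the root mean square difference of log2(RPKM + 1) over the 8 libraries after each gene was centred on its mean. For Spink1 these were Rbm3, a cold-induced RNA-binding protein (difference 0.080), and Kdsr, an enzyme of sphingolipid synthesis (0.084), with a median over all genes of 0.317. Prss3 was closest to Mpzl3 (0.108) and Lrig1, a restraint on EGF receptors (0.146), against a median of 0.484. Try4 was closest to the clock gene Per1 (0.063) and the ER co-chaperone Dnajb9 (0.072), Try5 to Hcfc1r1 (0.070) and Tnfrsf10b (0.083), and Prss2 to Sars2 (0.048) and Eif2b4 (0.057). Try10 was closest to Tefm (0.125) and Ces1e (0.137). Prss1 had the loosest neighbours of the 7, Errfi1 (0.214) and Arl14ep (0.232). These neighbours depend on the pseudocount of 1, which shrinks the changes of genes with low levels. Per1 averaged 0.974 RPKM, and its log2 change was 0.43 with a pseudocount of 1, 0.81 with 0.1 and 0.89 by limma-voom, while Try4 was at 0.38 in each. Kdsr averaged 1.44 RPKM, and its log2 change was -0.49, -0.78 and -0.84, while Spink1 was at -0.60 in each. Sars2, Tnfrsf10b, Tefm, Ces1e and Lrig1 also averaged at most 2.91 RPKM. Among the 7 genes themselves the closest pair was Prss2 and Try5 (0.096), and the farthest was Prss3 and Spink1 (0.694). Prss2 varied little, by 0.091 around its own mean in the same measure. A gene with no change at all would therefore lie closer to Prss2 than Try5 did.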
